A study of Mus musculus with 9 samples.

Results

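The clustered histone genes encode the core histones H2A, H2B, H3 and H4 and the linker histone H1, and lie in the mouse gene clusters Hist1, Hist2 and Hist3. They were found by their symbols in the annotation of the array, which begin with Hist1h, Hist2h or Hist3h, and by the current names of the same genes. A total of 30 such genes had a probe set that names no other gene, of 19937 genes with a probe set of their own. They were 5 H1, 5 H2A, 11 H2B, 3 H3 and 6 H4 genes. In the RefSeq table of GRCm38.p6, 23 of them lie in Hist1 on chromosome 13, 4 in Hist2 on chromosome 3 and 3 in Hist3 on chromosome 11. A further 21 probe sets named several clustered histones and nothing else, and are described apart from the 30. Probe sets of both kinds named 54 clustered histone genes, of 69 in the RefSeq table, and 24 of the 54 were named on shared probe sets only.

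The study measured RNA of mouse embryonic fibroblasts (MEFs), cells grown out of embryos, on Affymetrix expression arrays. There were 3 genotypes with 3 arrays each: p27KO (KO), in which the gene of p27 is knocked out, p27CK (CK) and wild type (WT). The p27 protein, product of Cdkn1b, binds and inhibits cyclin-dependent kinases, and CK is the name of a mouse p27 mutant known for no longer binding cyclins and these kinases, an allele that the labels do not describe further. The labels' extraction protocol also names delta51 mice without tying that name to a genotype group. The cells of all 9 arrays, WT included, had been grown with 10% fetal bovine serum and then held for 72 h without serum, which makes cultured fibroblasts leave the cell cycle, and were called quiescent. The labels do not state how many embryos or cultures the 3 arrays of a genotype came from, or whether the cells were primary or a line, so a p-value here takes in no more than how these arrays vary, and that variation may be technical.

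Histones are the proteins around which DNA is wound, and H1 sits on the DNA between the wound units. The clustered genes are known for making most histone mRNA while DNA is copied in S phase: NPAT, a target of cyclin E and CDK2, switches on their transcription, and their mRNAs lack introns and mostly end in a stem-loop, bound by SLBP, in place of a poly(A) tail. These mRNAs are quickly degraded when DNA synthesis stops, so that cells outside the cycle hold few of them. Some members are known to give tailed transcripts as well, in human cells HIST1H1C and HIST2H2BE, the counterparts of H1f2 and H2bc21. The labels do not say whether reverse transcription started from the poly(A) tail. In RNA from a whole culture, fewer cells in S phase and less histone RNA per cell cannot be told apart.

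The promoters of 4 members are shown because pairs of the same histone class differed in how they stood in CK and KO cells, as given below for each gene. Each is the RefSeq sequence of GRCm38.p6 from 250 bases before to 50 bases after the start of the gene. Capitals mark CCAAT (or ATTGG, the same box on the other strand), TATAAA, the octamer ATTTGCAT known from H2B promoters, and AAACACA, an element known from H1 promoters.
H1f1, chr13:23763418-23763717, + strand: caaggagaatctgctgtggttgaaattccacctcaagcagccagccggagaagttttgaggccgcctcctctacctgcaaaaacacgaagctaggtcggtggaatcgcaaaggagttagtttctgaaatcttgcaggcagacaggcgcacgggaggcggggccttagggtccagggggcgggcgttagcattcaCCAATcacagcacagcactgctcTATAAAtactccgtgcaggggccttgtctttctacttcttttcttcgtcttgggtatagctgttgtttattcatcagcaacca
H1f2, chr13:23738557-23738856, + strand: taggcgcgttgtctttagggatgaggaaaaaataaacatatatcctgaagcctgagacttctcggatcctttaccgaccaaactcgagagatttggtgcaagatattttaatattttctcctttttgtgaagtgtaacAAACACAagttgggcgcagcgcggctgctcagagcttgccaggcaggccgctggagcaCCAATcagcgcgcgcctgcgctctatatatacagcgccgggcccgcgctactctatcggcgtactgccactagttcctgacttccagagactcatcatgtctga
H2bc3, chr13:23746484-23746783, + strand: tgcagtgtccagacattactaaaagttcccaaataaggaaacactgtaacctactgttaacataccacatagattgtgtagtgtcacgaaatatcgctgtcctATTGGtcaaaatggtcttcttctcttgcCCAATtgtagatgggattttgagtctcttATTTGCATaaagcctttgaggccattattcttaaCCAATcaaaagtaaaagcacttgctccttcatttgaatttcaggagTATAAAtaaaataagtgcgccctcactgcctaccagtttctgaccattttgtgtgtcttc
H2bc8, chr13:23571150-23571449, + strand: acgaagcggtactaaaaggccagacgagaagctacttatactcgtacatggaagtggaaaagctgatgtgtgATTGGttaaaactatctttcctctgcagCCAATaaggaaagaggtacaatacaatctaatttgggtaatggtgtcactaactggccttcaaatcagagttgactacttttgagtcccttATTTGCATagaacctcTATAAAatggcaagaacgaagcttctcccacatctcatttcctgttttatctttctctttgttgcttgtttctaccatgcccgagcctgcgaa
The H1f1 window held TATAAA and no AAACACA, and the H1f2 window held AAACACA and no TATAAA. The H2bc3 and H2bc8 windows both held the octamer, TATAAA and CCAAT. Both strands were searched for the exact letters only, so variants of these elements are not marked or counted. No matches overlap each other in these windows. A promoter window of 300 bases was given for 25 of the 30 members. Over 62 windows of clustered histones, CCAAT was found in 87.1%, against 37.4% of all 32851 windows. TATAAA was found in 56.5% of the histone windows and 13.6% of all windows. The octamer was found in 22.6% and 1.74%, in 7 of 17 H2B and 7 of 18 H2A windows and in 0 of the H1, H3 and H4 windows. AAACACA was found in 5 of 6 H1 windows, of which H1f1 was the exception, in 14.5% of the histone windows and in 7.18% of all windows. CCAAT was present in every H1, H2A, H2B and H3 window and in 3 of 11 H4 windows. A match describes the letters of a window and is not evidence of binding.

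Values are log2 expression, so that a difference of 1 is a 2-fold difference. Cdkn1b, the targeted gene, averaged 7.38 ± 0.11 in KO, 11.10 ± 0.09 in CK and 11.46 ± 0.04 in WT (SD, n = 3 each). It was 17.0-fold lower in KO than in WT, and its arrays did not overlap between genotypes (exact two-sided permutation p = 0.1, the smallest that 3 against 3 arrays can give). A second, dimmer Cdkn1b probe set averaged 7.604 in KO, 7.08 in CK and 7.43 in WT, a difference of 0.18 for KO minus WT, and its KO and WT arrays overlapped (exact two-sided permutation p = 0.2). Array medians lay between 7.29 and 7.40, and arrays correlated across probe sets at 0.995 to 0.998 within a genotype and 0.964 to 0.975 between genotypes. All 12 fibroblast markers were above the level for testing, with a list mean of 11.84 to 11.88 in KO, 12.54 to 12.66 in CK and 12.71 to 12.82 in WT. By the limma test described below, 1 of the 12 was higher and 10 were lower in KO than in WT, with a median difference of -0.71. Of all tested genes 26.6% were higher and 24.6% lower in KO than in WT. Thy1, 1 of the 12, averaged 7.14 in KO and 11.73 in WT. All 6 cartilage markers were higher in KO than in WT, with a list mean of 10.44 to 10.90 in KO, 7.75 to 7.81 in CK and 7.94 to 8.07 in WT. Of the markers of macrophages 2 of 8 were above the level, of endothelium 1 of 6, of epithelium 3 of 6, of skeletal muscle 0 of 6 and of neural cells 1 of 6. The part of these differences in the histone results was not tested.

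Several arrays differed from the others of their genotype for histones. On the 21 shared probe sets, KO replicate 3 lay above both other KO arrays in 17 (81%), against 34.9% of all tested genes, by a median of 0.44 over the mean of the other KO arrays. KO replicate 2 lay below both others in 17 of the 21, CK replicate 3 lay below both other CK arrays in 16, and CK replicate 1 and WT replicate 3 each lay above both others of their genotype in 15. The shares of all tested genes for these arrays were 28.7%, 26.8%, 30.8% and 24.4%, in the same order and directions. Among the 30 genes with a probe set of their own, KO replicate 3 lay above both other KO arrays for 16 and below both for 9. Of all tested genes, 34.9% lay above and 43.6% below on that array. Of the 18 genes that were tested, 15 (83.3%) were lowest on CK replicate 3 among the CK arrays, against 26.8% of all tested genes. Counts are therefore also given without single arrays, and some of the differences that use KO without KO replicate 3. Other KO differences are given over all arrays only, and leaving out KO replicate 3 can change them too.

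Genes with a mean of at least 7.24, the 40th percentile of all genes, were tested with limma, which left 11962 genes and 18 of the 30 clustered histones. Those 18 had a mean above this level in all 3 genotypes. They were 3 of 5 H1, 3 of 5 H2A, 7 of 11 H2B, 0 of 3 H3 and 5 of 6 H4 genes. A gene was called when its p-value, adjusted by Benjamini-Hochberg over all 11962 genes, was below 0.05. The fits of KO versus WT and CK versus WT share the WT arrays, and those of CK versus KO share arrays with both.

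Between KO and WT, 4 of the 18 tested genes were higher in KO (H2bc4, H1f2, H2bc8 and H4c3) and 1 was lower (H2bc9). This is 27.8% called, below the 51.2% of all genes that were called in this comparison, 26.6% higher and 24.6% lower. Between CK and WT, 7 were higher in CK (H2ac15, H1f1, H2bc3, H2bc4, H4c3, H1f2 and H2bc8) and 2 lower (H2aw and H4c14). This is 50% of the 18, against 62.9% of all genes called, 30.7% higher and 32.1% lower. Between CK and KO, 7 were higher in CK (H2bc3, H2ac15, H1f1, H2bc14, H2bc9, H4c3 and H2ac1) and 0 were lower, or 38.9%, against 62.2% of all genes, 29.5% higher and 32.7% lower.

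With no lower level, all 30 genes entered the fit over 19937 genes. Then 6 were higher and 2 lower in KO than in WT, where 33.7% of all genes were called (17.2% higher and 16.4% lower). In CK against WT 8 were higher and 2 lower, where 42.3% of all genes were called (20.7% higher and 21.6% lower). In CK against KO 8 were higher and 2 lower, where 41.5% of all genes were called (19.9% higher and 21.6% lower). The median difference of the 30 was -0.01 for KO minus WT, 0.11 for CK minus WT and 0.02 for CK minus KO, beside 0.01, -0.01 and -0.01 over all genes. Groups did not overlap for 7 genes higher and 4 lower in KO than in WT, where 22.6% of all genes were higher and 20.8% lower without overlap. For CK against WT these were 11 and 3 genes (23.7% and 24.9% of all genes), and for CK against KO 8 and 4 genes (22.9% and 25.9%). Without KO replicate 3, the tested genes called were 4 higher and 4 lower in KO than in WT (49.4% of all genes called), 8 higher and 2 lower in CK than in WT (63.8%) and 7 higher and 1 lower in CK than in KO (59.6%). The 5 calls of KO against WT became 8 in that case, but 2 without KO replicate 2, 3 without KO replicate 1, CK replicate 2, WT replicate 1 or WT replicate 2, and 4 without any other array. The 7 genes higher in CK than in WT became 11 without CK replicate 3 and 6 to 8 without any other array, and the 7 higher in CK than in KO stayed between 6 and 8. Of the 21 differences called, 15 kept their call under every alternative that was run, and 6 lost it under at least 1.

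**Figure D1:**
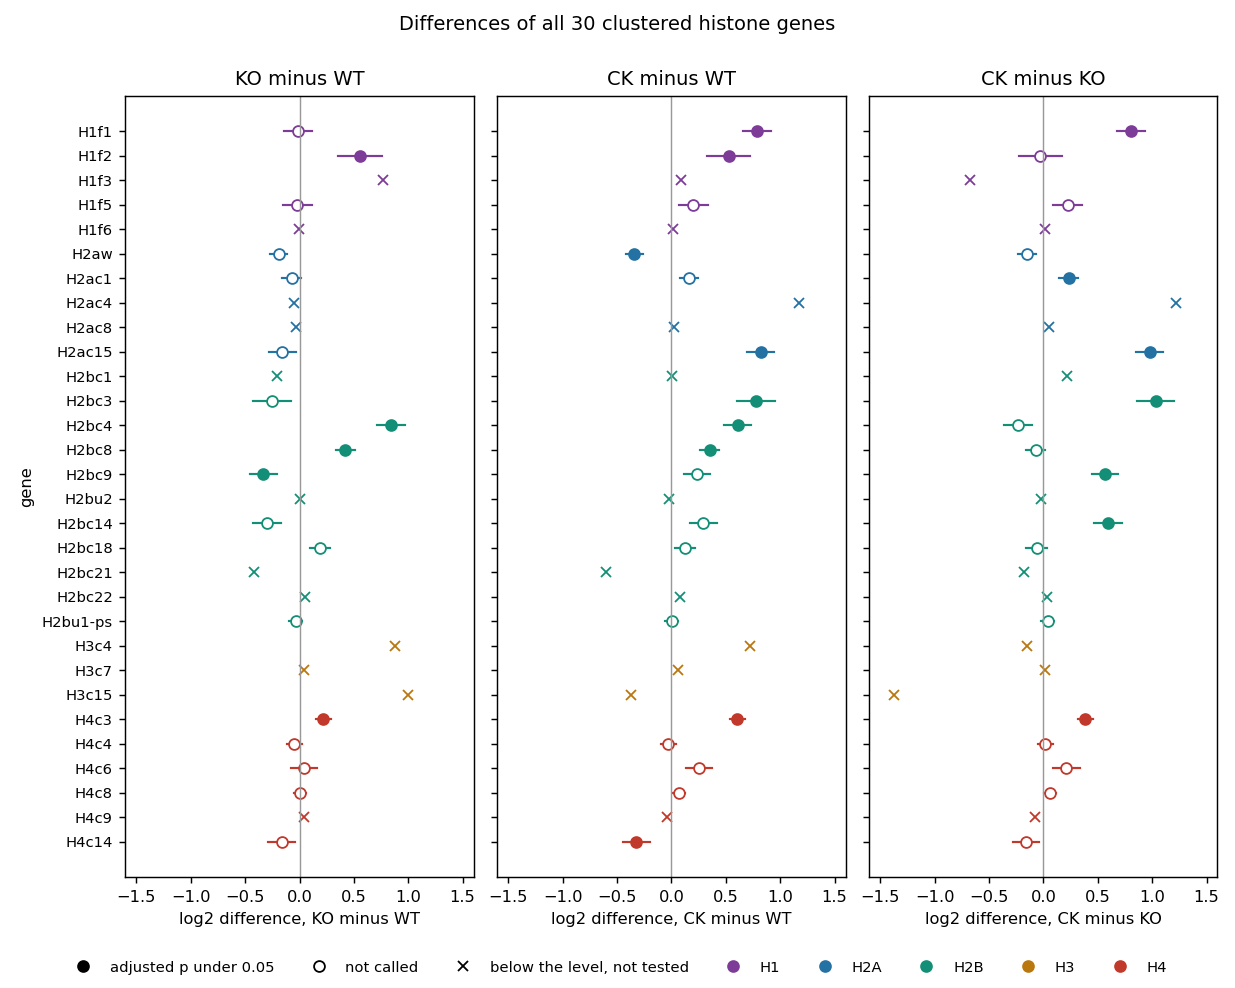
Difference in log2 expression of each of the 30 genes (rows, by histone class) for KO minus WT, CK minus WT and CK minus KO, with bars of 1 SE for tested genes. Filled points are called, open points are not called, and crosses mark genes below the level for testing. H2bc4 lies farthest right of the tested genes in KO minus WT (0.84), and H1f1, H2ac15 and H2bc3 lie at 0.79, 0.82 and 0.78 in CK minus WT.

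The linker histone genes differed among themselves. H1f1 (Hist1h1a) had values of 8.98, 8.78 and 8.84 in KO, 10.00, 9.60 and 9.40 in CK, and 8.93, 8.78 and 8.93 in WT. All CK arrays lay above all others, and KO and WT overlapped. H1f1 was higher in CK than in WT by 0.79 (SE 0.129, limma adjusted p = 0.000328) and higher in CK than in KO by 0.80 (adjusted p = 0.000291). The difference of KO from WT was -0.01 (adjusted p = 0.947).

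H1f2 (Hist1h1c), a linker histone gene expressed in most somatic cells, had values of 12.21, 12.31 and 11.67 in KO, 12.11, 11.91 and 12.09 in CK, and 11.71, 11.76 and 11.05 in WT. Its lowest KO array overlapped WT, and WT replicate 3 lay below the other WT arrays. H1f2 was higher in KO by 0.55 (SE 0.200, adjusted p = 0.0392) and higher in CK by 0.53 (adjusted p = 0.04), each against WT. Without WT replicate 3 these differences were 0.33 (adjusted p = 0.137) and 0.30 (adjusted p = 0.147), and neither was called. Without KO replicate 3 the difference of KO from WT was 0.75 (adjusted p = 0.00636). The call for KO was also lost without KO replicate 1 (adjusted p = 0.121), without KO replicate 2 (adjusted p = 0.137), without any 1 CK array (adjusted p = 0.0522 to 0.0538), without the lower level (adjusted p = 0.0762) and over the 6 KO and WT arrays alone (adjusted p = 0.0765). The call for CK was also lost without CK replicate 1, 2 or 3 (adjusted p = 0.103, 0.0546 and 0.0967) and without the lower level (adjusted p = 0.0766).

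H1f5 (Hist1h1b), another somatic H1, averaged 9.86 ± 0.10 in KO, 10.09 ± 0.31 in CK and 9.89 ± 0.10 in WT, and no difference was called. It was called higher in CK only without CK replicate 3, by 0.34 over WT (adjusted p = 0.0345) and 0.36 over KO (adjusted p = 0.0265). H1f3 (Hist1h1d) lay below the level for testing, with 7.12, 7.04 and 6.41 in KO, 6.25, 6.04 and 6.25 in CK, and 6.16, 6.17 and 5.95 in WT. The KO values lay above those of both other genotypes, by 0.76 over WT in the fit with no lower level (adjusted p = 0.00635), and by 0.99 without KO replicate 3. H1f6 (Hist1h1t), made mainly in testis, averaged 6.20 in KO, 6.22 in CK and 6.21 in WT.

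Among the H2A genes, H2ac15 (Hist1h2ak) had values of 11.50, 11.37 and 11.90 in KO, 12.62, 12.63 and 12.45 in CK, and 11.71, 11.67 and 11.86 in WT. The CK arrays lay above all others, and KO replicate 3 lay above every WT array while the other KO arrays lay below them. H2ac15 was higher in CK than in WT by 0.82 (SE 0.122, adjusted p = 0.000168) and higher in CK than in KO by 0.98 (adjusted p = 4.5e-05). KO differed from WT by -0.16 (adjusted p = 0.316), and by -0.31 without KO replicate 3 (adjusted p = 0.0118).

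H2aw (Hist3h2a), the H2A gene of the Hist3 cluster, went the other way. It had 10.71, 10.73 and 10.68 in KO, 10.66, 10.53 and 10.48 in CK, and 10.89, 11.06 and 10.75 in WT. Every CK array lay below every KO array, and every KO array below every WT array. H2aw was lower in CK than in WT by 0.34 on the log2 scale (difference -0.34, SE 0.079, adjusted p = 0.00314). The differences of -0.19 for KO from WT (adjusted p = 0.0653) and -0.15 for CK from KO (adjusted p = 0.122) were not called. The difference of KO from WT was called without WT replicate 3 (-0.26, adjusted p = 0.0166) and when arrays were quantile normalized again (-0.21, adjusted p = 0.0378).

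H2ac4 (Hist1h2ab) was below the level for testing. It had 6.62, 6.25 and 6.92 in KO, 7.76, 8.05 and 7.65 in CK, and 6.45, 6.60 and 6.90 in WT, and only its CK mean exceeded the level. The CK arrays lay above all others. With no lower level, CK differed from WT by 1.17 (adjusted p = 0.000565) and from KO by 1.22 (adjusted p = 0.000428). H2ac1 (Hist1h2aa), which encodes the testis form of H2A, averaged 8.40 ± 0.12 in KO, 8.63 ± 0.16 in CK and 8.47 ± 0.03 in WT. It was called higher in CK than in KO (0.23, adjusted p = 0.0341) although the arrays of these genotypes overlapped. The call was lost without CK replicate 1 or 2 (adjusted p = 0.08 and 0.129), without KO replicate 1 (adjusted p = 0.14), with no lower level and over the 6 CK and KO arrays. H2ac8 (Hist1h2ae) had means of 5.62 to 5.67 in the 3 genotypes.

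The largest difference of KO from WT among the tested genes was that of an H2B gene. H2bc4 (Hist1h2bc) had 12.53, 12.44 and 12.16 in KO, 12.08, 12.24 and 12.11 in CK, and 11.54, 11.79 and 11.27 in WT. All KO and all CK arrays lay above all WT arrays. H2bc4 was higher in KO than in WT by 0.84 (SE 0.128, adjusted p = 0.000278), which is 1.79-fold, and higher in CK than in WT by 0.61 (adjusted p = 0.0018), which is 1.52-fold. CK and KO differed by -0.23 (adjusted p = 0.138), and by -0.34 without KO replicate 3 (adjusted p = 0.0393), that is, lower in CK.

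H2bc8 (Hist1h2bg) had 8.68, 8.51 and 8.31 in KO, 8.41, 8.50 and 8.38 in CK, and 8.16, 8.02 and 8.05 in WT. Again all KO and CK arrays lay above the WT arrays, by 0.42 for KO (adjusted p = 0.00238) and by 0.35 for CK (adjusted p = 0.0055). CK and KO differed by -0.07 (adjusted p = 0.504).

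H2bc3 (Hist1h2bb) had 9.13, 8.97 and 9.65 in KO, 10.45, 10.21 and 10.19 in CK, and 9.21, 9.62 and 9.69 in WT. The CK arrays lay above all others and the KO and WT arrays overlapped. H2bc3 was higher in CK than in WT by 0.78 (SE 0.174, adjusted p = 0.00263) and higher in CK than in KO by 1.03 (adjusted p = 0.000404), the largest difference among the 18 tested genes. KO differed from WT by -0.25 (adjusted p = 0.253), and by -0.45 without KO replicate 3 (adjusted p = 0.0229).

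H2bc14 (Hist1h2bm) had 10.55, 10.54 and 11.01 in KO, 11.31, 11.44 and 11.12 in CK, and 10.97, 10.90 and 11.12 in WT. CK was higher than KO by 0.59 (adjusted p = 0.00201), with no overlap. The differences from WT, -0.30 for KO (adjusted p = 0.0728) and 0.29 for CK (adjusted p = 0.0663), were not called with all arrays. Without KO replicate 3 they were -0.45 (adjusted p = 0.00307) and 0.29 (adjusted p = 0.0127). The difference of CK from WT was also called without CK replicate 3 (0.38, adjusted p = 0.0388), over the 6 CK and WT arrays (adjusted p = 0.022) and with arrays centred on their medians (adjusted p = 0.0341).

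H2bc9 (Hist1h2bh) had 10.13, 10.06 and 10.43 in KO, 10.92, 10.89 and 10.51 in CK, and 10.49, 10.46 and 10.65 in WT. Every KO array lay below every other array. H2bc9 was higher in CK than in KO by 0.57 (adjusted p = 0.00225) and was lower in KO than in WT by a difference of -0.33 (adjusted p = 0.0448). This last call was lost when any 1 of KO replicates 1 and 2, CK replicate 2 and the WT replicates was left out (adjusted p = 0.0522 to 0.151), and the difference was -0.44 without KO replicate 3 (adjusted p = 0.011). It was also lost when arrays were centred on their medians (adjusted p = 0.0503), normalized again (adjusted p = 0.0552) or tested with no lower level (adjusted p = 0.0784).

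Of the other 6 H2B genes, 2 were tested and neither was called. H2bc18 (Hist2h2bb) averaged 8.96 ± 0.14 in KO, 8.90 ± 0.18 in CK and 8.78 ± 0.03 in WT. H2bu1-ps (Hist3h2bb), whose symbol ends as that of a pseudogene and which is counted here by its symbol, averaged 7.38, 7.41 and 7.41 in the same order of genotypes. H2bc1 (Hist1h2ba), the testis form of H2B, H2bu2 (Hist3h2ba), H2bc21 (Hist2h2be) and H2bc22 (Hist1h2bp) lay below the level. Of these, H2bc21 had 6.81, 6.73 and 6.81 in KO, 6.66, 6.52 and 6.61 in CK, and 7.03, 7.32 and 7.23 in WT, so that every WT array was the higher. With no lower level, H2bc21 differed from WT by -0.42 in KO (adjusted p = 0.0015) and by -0.60 in CK (adjusted p = 0.000106). H2bc1 differed by -0.21 for KO from WT (adjusted p = 0.0491) and by 0.21 for CK from KO (adjusted p = 0.0369).

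**Figure D2:**
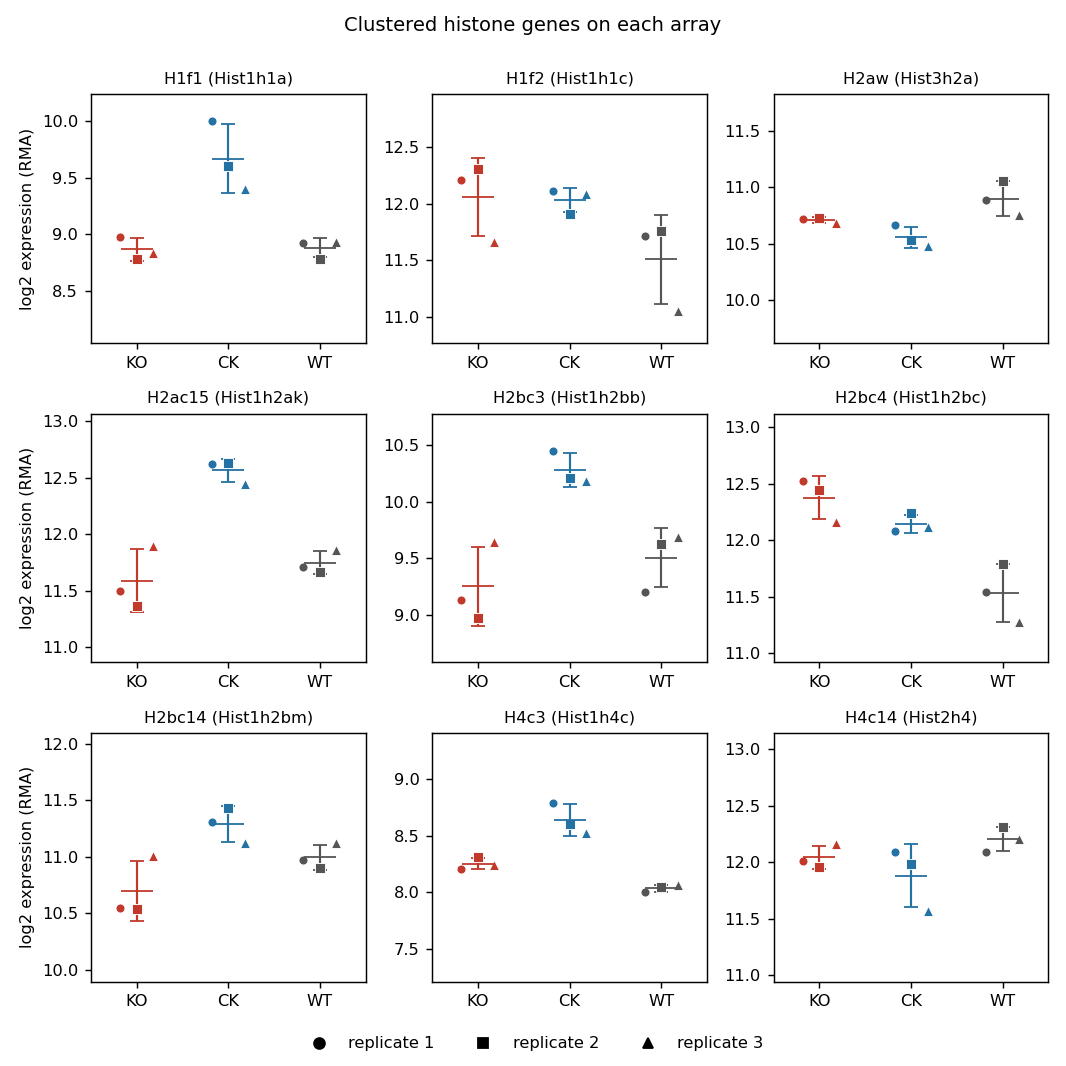
Log2 expression of 9 clustered histone genes on each array, by genotype (KO, CK, WT). Points are single arrays with the shape giving the replicate number, horizontal lines are means and bars are 1 SD, and every panel spans 2.2 log2 units. H1f1, H2ac15 and H2bc3 stand higher in CK than in both other genotypes, and H2bc4 stands higher in KO and in CK than in WT.

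The 3 H3 genes with a probe set of their own were all below the level and were tested only in the fit without it. H3c15 (Hist2h3c2) had 8.23, 8.30 and 7.22 in KO, 6.41, 6.63 and 6.59 in CK, and 7.04, 6.997 and 6.72 in WT. KO replicate 3 lay 1 log2 unit or more below the other KO arrays, yet above every CK and WT array. KO differed from WT by 1.00 (adjusted p = 0.0128) and CK from KO by -1.37 (adjusted p = 0.00162), and without KO replicate 3 the differences were 1.35 and -1.72. H3c4 (Hist1h3d) had 7.77, 7.77 and 7.12 in KO, 7.19, 7.26 and 7.75 in CK, and 6.67, 6.85 and 6.51 in WT. Every WT array was the lower, by 0.87 against KO (adjusted p = 0.0082) and 0.72 against CK (adjusted p = 0.0166), and by 1.09 against KO without KO replicate 3. H3c7 (Hist1h3f) averaged 5.31 in KO, 5.32 in CK and 5.27 in WT.

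Of the H4 genes, all of which encode the same or nearly the same protein, H4c3 (Hist1h4c) had 8.21, 8.31 and 8.24 in KO, 8.79, 8.60 and 8.52 in CK, and 8.0025, 8.04 and 8.06 in WT. The 3 genotypes did not overlap, with CK above KO and KO above WT. H4c3 was higher in CK than in WT by 0.60 (SE 0.070, adjusted p = 2.65e-05), higher in CK than in KO by 0.39 (adjusted p = 0.000671) and higher in KO than in WT by 0.22 (adjusted p = 0.0242). The last of these was not called without WT replicate 1 (adjusted p = 0.0756), WT replicate 2 (adjusted p = 0.0555) or KO replicate 2 (adjusted p = 0.0853).

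H4c14 (Hist2h4), the H4 gene of the Hist2 cluster, had 12.01, 11.96 and 12.16 in KO, 12.09, 11.98 and 11.57 in CK, and 12.09, 12.31 and 12.21 in WT. It was called lower in CK than in WT, with a difference of -0.32 (adjusted p = 0.04), though the arrays overlapped. Without CK replicate 3, its lowest array, the difference was -0.17 and was not called (adjusted p = 0.12), and the call was also lost without WT replicate 2 or 3 (adjusted p = 0.129 and 0.0821) or KO replicate 1 (adjusted p = 0.0537). It was lost as well over the 6 CK and WT arrays (adjusted p = 0.0567), with arrays centred on their medians (adjusted p = 0.059) and with no lower level (adjusted p = 0.07). H4c4 (Hist1h4d) averaged 13.24 ± 0.12 in KO, 13.26 ± 0.03 in CK and 13.29 ± 0.08 in WT, and H4c8 (Hist1h4h) 8.12, 8.18 and 8.11. H4c6 (Hist1h4f) averaged 9.93, 10.14 and 9.89 in KO, CK and WT. None of these was called in any comparison with all arrays. H4c9 (Hist1h4i), below the level, averaged 7.22, 7.14 and 7.18 in the same order.

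The 21 probe sets that name several clustered histones were 9 for H3, 6 for H2B, 5 for H4 and 1 for a pair of an H1 and an H2B gene, and 19 of them reached the level. Tested among all 18004 probe sets that did, 15 were higher and 2 lower in CK than in KO, or 89.5%, against 51.9% of all probe sets called, 24.3% higher and 27.6% lower. In CK against WT 4 were higher and 0 lower (52.2% of all probe sets called, 26.6% higher and 25.6% lower), and in KO against WT 1 was higher and 6 lower (42% called, 23.3% higher and 18.8% lower). Their median difference was 0.47 for CK minus KO, 0.18 for CK minus WT and -0.26 for KO minus WT. Most H2B, H3 and H4 sets name the same genes of a class, so they may read the same transcripts and are not independent of each other. Without KO replicate 3, 16 were higher and 2 lower in CK than in KO (48.4% of all probe sets called), and 2 higher and 11 lower in KO than in WT (39.2% of all probe sets called). The 17 calls of CK against KO became 8 without CK replicate 1, 11 without CK replicate 2, 9 without KO replicate 1 and 10 without KO replicate 2. The 11962 tested genes had 7439 calls of CK against KO, which became 7034, 7068, 6788 and 6867 without the same arrays. The 7 calls of KO against WT became 1 and 2 without KO replicates 1 and 2, and 3, 4 and 2 without WT replicates 1, 2 and 3. Over all tested genes, 6129 calls of KO against WT became 5298 and 5372, and 5456, 5564 and 5581, without these arrays.

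The H2B set with the largest difference, which names 15 symbols, had 10.30, 9.98 and 10.63 in KO, 12.11, 11.97 and 11.70 in CK, and 10.56, 11.03 and 11.15 in WT. All CK arrays lay above all others, and KO overlapped WT. It was higher in CK than in WT by 1.01 (adjusted p = 0.00206), higher in CK than in KO by 1.62 (adjusted p = 0.000109) and lower in KO than in WT with a difference of -0.61 (adjusted p = 0.0325). All 6 H2B sets were higher in CK than in KO, by 0.21 to 1.62.

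Of the 8 H3 sets tested, 7 were higher in CK than in KO. One of them had 12.67, 12.41 and 13.18 in KO, 13.47, 13.43 and 13.31 in CK, and 13.34, 13.27 and 13.55 in WT. KO replicate 3 lay near the WT and CK arrays and the other KO arrays lay below them. This set was lower in KO than in WT with a difference of -0.63 (adjusted p = 0.0153), and -0.84 without KO replicate 3 (adjusted p = 0.000504). The 8th H3 set went the other way: 10.61, 10.43 and 10.44 in CK, against 11.11, 10.99 and 10.71 in KO, a difference of -0.45 (adjusted p = 0.00426). The set that names H2bc6 and H1f4 was likewise lower in CK than in KO, by -0.24 (adjusted p = 0.0193), and was higher in KO than in WT by 0.37 (adjusted p = 0.00271). Of the 4 H4 sets tested, 2 were higher in CK than in KO and 2 were higher in CK than in WT.

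**Figure D3:**
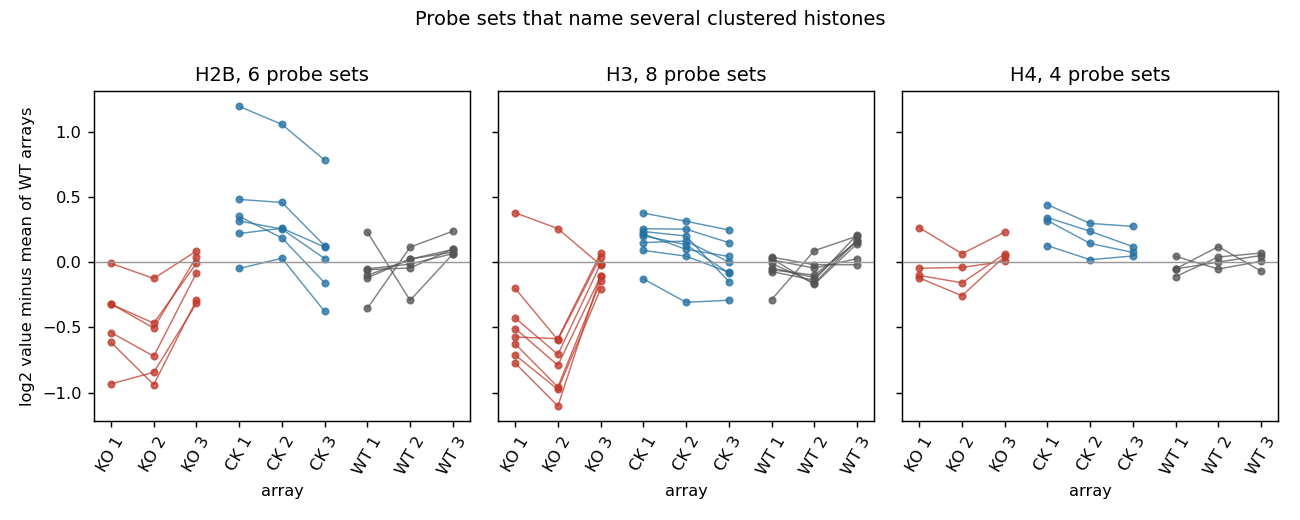
Log2 value of each shared probe set on each array (horizontal axis, in the order KO, CK, WT) minus its mean over the WT arrays, for the 6 H2B, 8 H3 and 4 H4 sets that reached the level. Lines join the arrays of a genotype for 1 set. KO replicate 3 lies above the other KO arrays for all 6 H2B sets and for 7 of the 8 H3 sets drawn.

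Genes of S phase and mitosis also differed between genotypes. Of 29 tested genes for S phase and DNA replication, 21 were higher and 0 lower in CK than in WT, 23 higher and 0 lower in CK than in KO, and 3 higher and 9 lower in KO than in WT. Over all tested genes, 30.7% were higher and 32.1% lower in CK than in WT, 29.5% and 32.7% in CK than in KO, and 26.6% and 24.6% in KO than in WT, and these shares also stand beside the lists that follow. Cdt1, which loads the replicative helicase, was higher in CK than in WT by 1.05 and in KO differed from WT by -0.48 (adjusted p = 0.01). The median difference of the measured S phase genes was 0.37 for CK minus WT and -0.08 for KO minus WT. The mean of the list was 9.28, 9.22 and 9.47 on the KO arrays, 10.00, 9.87 and 9.70 on the CK arrays, and 9.43, 9.40 and 9.51 on the WT arrays. Of 13 tested mitotic genes, 4 were higher and 0 lower in CK than in WT, 9 higher and 0 lower in CK than in KO, and 1 higher and 10 lower in KO than in WT. The mean of the mitotic list was 8.87, 8.58 and 9.34 on the KO arrays, 10.14, 9.94 and 9.60 on the CK arrays, and 9.44, 9.42 and 9.66 on the WT arrays. KO replicate 3 was thus the highest of the KO arrays and CK replicate 3 the lowest of the CK arrays in both lists, as on most shared histone probe sets. The part of these differences in the histone results was not tested.

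**Figure D4:**
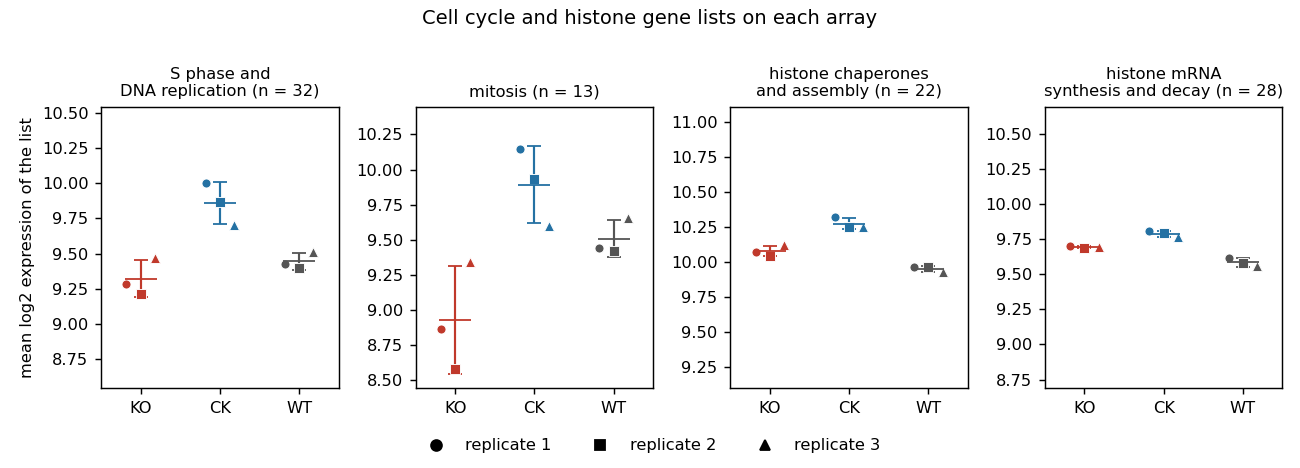
Mean log2 expression of 4 gene lists on each array, by genotype (KO, CK, WT). Points are arrays with the shape giving the replicate number, horizontal lines are means, bars are 1 SD, and each panel spans 2 log2 units. The CK arrays lie above the KO and WT arrays in the S phase list, between 9.70 and 10.00, and KO replicate 3 is the highest KO array for S phase and mitosis.

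Genes that make, process and degrade histone mRNA were examined as a list of 28 measured genes, of which 27 were tested. Of these, 9 were higher and 4 lower in KO than in WT, 15 higher and 4 lower in CK than in WT, and 12 higher and 6 lower in CK than in KO. Over all tested genes 51.2%, 62.9% and 62.2% were called in these comparisons, so the total counts lie near the background. By direction, the calls in CK leaned to higher. Of all tested genes 30.7% were higher and 32.1% lower in CK than in WT, against 15 and 4 of these 27. For CK against KO the shares were 29.5% and 32.7%, against 12 and 6 of the 27. Npat, the coactivator of histone genes, was higher in CK than in WT by 0.42 (adjusted p = 4.5e-05) and higher in KO than in WT by 0.21 (adjusted p = 0.00711). Hinfp, the factor that binds H4 promoters, was higher in CK than in WT by 0.79 and in KO than in WT by 0.40. Casp8ap2 (FLASH), needed for processing of histone mRNA ends, was higher in CK by 0.83 and in KO by 0.43, both against WT. Slbp, the stem-loop binding protein, was not called, with 0.13 for CK minus WT (adjusted p = 0.228) and 0.22 for KO minus WT (adjusted p = 0.072). Eri1, an exonuclease that acts on histone mRNA ends, was higher in CK than in WT by 0.80, while Coil, the scaffold of Cajal bodies, was lower with a difference of -1.03. Ccne1, which encodes cyclin E1, was higher in CK than in WT by 0.73 and lower in KO than in WT, with a difference of -0.74, whereas Ccne2 was higher in both, by 1.25 and 0.99.

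Histone genes outside the clusters, which are mostly expressed apart from S phase, were tested for 10 of 12 measured genes. In KO against WT 0 were higher and 4 lower, in CK against WT 3 were higher and 3 lower, and in CK against KO 4 were higher and 1 lower. In total, the share called did not exceed that of all genes in any comparison (51.2%, 62.9% and 62.2%). H2az1, which encodes the variant H2A.Z, had 11.13, 10.99 and 11.31 in KO, 12.50, 12.46 and 12.38 in CK, and 11.32, 11.27 and 11.37 in WT. It was higher in CK than in WT by 1.13 and higher in CK than in KO by 1.30. Macroh2a2, a variant H2A known from repressed chromatin, was lower in both, with -0.39 for KO and -0.69 for CK against WT, and Macroh2a1 was higher in CK by 0.60. Cenpa, the centromeric H3, was lower in KO than in WT with a difference of -0.74 (adjusted p = 0.014). Its call was lost without WT replicate 3, KO replicate 1 or KO replicate 2 (highest limma adjusted p = 0.0574). Of 21 tested histone chaperones and assembly factors, 8 were higher and 3 lower in KO than in WT, 14 higher and 3 lower in CK than in WT, and 7 higher and 5 lower in CK than in KO, where the total counts for KO against WT and for CK against KO again lie near the share of all genes called. Chaf1b, a subunit of the assembly factor that works at replication forks, was higher in CK than in WT by 0.74 and in KO differed by -0.49 (adjusted p = 0.0135).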

How the data were processed

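RNA of mouse embryonic fibroblasts was measured on 9 arrays, 3 each of KO, CK and WT. Per the submitters' processing notes, the authors used affy and RMA to make the deposited log2 values. Versions, annotation and filters are not given in the sources used here. The deposited digit strings had lost their decimal mark, so this other kind of value was restored: strings that begin with 1 were read as 10 or more and the rest as below 10. Quantile normalization within RMA hides changes in total RNA. The number of arrays limits the precision. The test planned for log2 values was kept for the restored ones.

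Per gene, the brightest probe set with 1 symbol was used, and genes with a mean of at least the 40th percentile (7.24) were fitted in limma (version 3.58.1, under R 4.3.3) with a mean for each genotype and Benjamini-Hochberg adjustment over all genes tested. Probe sets that name several histones were fitted among all 18004 probe sets over that level. Names, chromosomes and promoters came from RefSeq GRCm38.p6. Values on every array are given for members called with a log2 difference of at least 0.58 and for up to 2 per class with the smallest F-test p, of the shared sets for examples, and some further members were chosen after their values were seen. Of other lists, up to 4 members per comparison with the smallest p were eligible to be named. Npat, Slbp and some others were chosen after their values were seen. Data were also simulated with differences between KO and WT of 0.25, 0.5, 1 and 2, in 50 genes each. On these data the fit over 11962 genes recovered 34%, 78%, 96% and 100% of the differences, in the same order. It made 13 false calls. In the measured KO versus WT comparison 51.2% of genes were called, a far larger part than was changed in the simulation. How often the fit misses a real difference was therefore not measured.

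The members and lists were chosen with earlier results of these data known. Probe sequences were not analysed here. Histone genes are near copies of each other, so a probe set that names 1 gene may also read others. The table has no detection calls.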

Additional observations from a re-analysis of the deposited data

How the results depend on the processing

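Clustered histone genes called in KO versus WT were 5 with the settings of the report, 8 with no lower level and 14 with the shared probe sets included. The shared sets also gave 16 for CK versus WT, against 9, and 24 for CK versus KO, against 7. Here 19 shared sets joined the 18 tested genes, so these counts cover more features. Calls among all tested features went from 6129 to 6890 in KO versus WT. They went from 7520 to 8386 in CK versus WT and from 7439 to 8234 in CK versus KO. Leaving out 1 array gave 2 to 8, 7 to 12 and 6 to 8 clustered histones when KO was set against WT, CK against WT and CK against KO, and 1 to 13, 2 to 6 and 8 to 18 shared probe sets. Over all 11962 genes the same omissions gave 5298 to 6227, 6959 to 7630 and 6788 to 7523 calls. The 7 shared sets called in KO versus WT were 3 when only the 6 KO and WT arrays were fitted. Calls over all tested genes went from 6129 to 6263 with these 6 arrays. Over the 18 tested genes the median difference was 0.24 for CK minus WT, 0.14 for CK minus KO and -0.03 for KO minus WT. Over all 30 genes these medians were 0.11, 0.02 and -0.01. No called difference of a member changed sign, and 11 that were not called were called under at least 1 alternative.

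In deviations from the group means, same-numbered KO and WT arrays correlated at 0.05, 0.25 and 0.36 for replicates 1, 2 and 3. The highest correlation of the same KO array with a WT array of another number was 0.25, 0.15 and -0.15. Replicates 2 and 3 of KO thus went best with their own number. Same-numbered arrays correlated at -0.20 to -0.03 between CK and WT and at -0.30 to 0.05 between CK and KO. None of these went best with its own number. With the replicate number as a block, 4, 8 and 7 clustered histones and 7, 3 and 16 shared sets were called in the same order of comparisons. Calls over all tested genes were 5979, 7377 and 7291 with the block. The block lost the calls of H2bc9 in KO versus WT (adjusted p = 0.0695) and H4c14 in CK versus WT (adjusted p = 0.0559). All calls rest on 3 arrays a genotype. Dim probe sets may be background, and near-identical histone genes can share probes.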

Other observations

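A probe set that names 17 clustered H2A genes together with H2ax and H2af-ps2 belongs to neither kind described above. It had 8.85, 8.97 and 9.26 in KO, 9.24, 8.44 and 8.04 in CK, and 9.88, 10.40 and 10.19 in WT, so that every WT array was the highest. It was lower in KO than in WT with a difference of -1.13 (limma adjusted p = 0.00924) and lower in CK than in WT with -1.58 (adjusted p = 0.00103), while CK and KO differed by -0.46 (adjusted p = 0.199). Of the 3 tested H2A genes, 1 was called higher in CK than in WT (H2ac15, 0.82) and 1 lower (H2aw, -0.34). In CK this set thus went the opposite way from H2ac15 and the same way as H2aw.

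Of 41 measured genes that lie between the Hist1 members on chromosome 13 and are not histones, 3 reached the level for testing. Hfe, a gene of iron uptake, had 8.83, 8.71 and 8.53 in KO, 7.95, 7.995 and 8.14 in CK, and 7.42, 7.33 and 7.35 in WT. It was higher in KO than in WT by 1.32 (adjusted p = 2.5e-07) and higher in CK than in WT by 0.66 (adjusted p = 4.1e-05). Zfp322a was higher in KO by 0.21 (adjusted p = 0.022) and lower in CK with a difference of -0.38 (adjusted p = 0.00042), each against WT.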
